A study of Mus musculus with 4 samples.

Results

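Glycolysis splits a molecule of glucose into pyruvate in the cytosol, and lymphocytes that are activated or divide are known to draw on it heavily, turning much of the pyruvate into lactate. The 10 genes described here were taken by name from the pathway. *Slc2a1* encodes the glucose transporter GLUT1, *Hk2* a hexokinase that traps glucose in the cell, *Aldoa*, *Tpi1*, *Gapdh*, *Pgk1*, *Pgam1*, *Eno1* and *Pkm* the enzymes from aldolase to pyruvate kinase in the order of the pathway, and *Ldha* the lactate dehydrogenase subunit that makes lactate. All 10 were found among the 31053 genes of the data.

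The data are droplet single-cell RNA sequencing of liver mononuclear cells of C57BL/6 mice aged 8 to 10 weeks, with 1 library in each of 4 groups. Mice were untreated (Naïve), or received concanavalin A (ConA), a plant lectin that activates T cells and causes hepatitis, followed by vehicle (ConA+Veh), by TCDD (ConA+TCDD) or by FICZ (ConA+FICZ), and the ConA groups were taken 24 h after ConA. TCDD and FICZ are ligands of the aryl hydrocarbon receptor (AhR). The number of mice behind a library is not stated, so nothing here measures the spread between animals, no test was possible between groups, and intervals cover counting error only.

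The libraries held 1880 to 2779 cells with a median of 2161 to 3984 UMIs (unique molecular identifiers, each standing for 1 captured transcript) per cell, lowest in Naïve. The level of a gene in a class of cells is given as CPM, its UMIs summed over the cells of the class and scaled so that all UMIs of that class sum to 1000000, with a 95% Poisson interval. The assay reads the 5′ end of a transcript, so CPM was not divided by transcript length. Of all cells, 90 carried one of 45 barcodes that occurred in more than 1 library. The libraries stood apart in RNA from cells outside the classes, since hepatocyte markers summed to 1128 CPM in ConA+FICZ and to 15.5 to 200.1 CPM in the others, and erythroid markers to 183 CPM in ConA+FICZ and to 2341 to 5834 CPM in the others.

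Cells were put into 7 classes by the UMIs of lineage markers. Cycling CD8 T cells, those with at least 2 UMIs of 10 genes of the S to M phases such as *Mki67*, numbered 5 in Naïve, 274 in ConA+Veh, 141 in ConA+TCDD and 128 in ConA+FICZ. The numbers of other CD8 T cells in the same order were 144, 75, 79 and 83, and those of CD4 T cells 85, 135, 94 and 87. NK cells numbered 123, 250, 194 and 177, B cells 1079, 803, 376 and 765, and myeloid cells 95, 246, 73 and 218. Regulatory T cells, called by a UMI of *Foxp3*, were only 4, 10, 16 and 22, so their values rest on few cells. The gates fix the defining markers of each class, so these are no check of the names. *Cd79b*, a B cell marker, had a UMI in 11.3% of cycling CD8 T cells, for which the gate allowed 1 UMI of B cell markers. The myeloid class was not of 1 makeup in the 4 libraries, since its myeloid markers summed to 13272 CPM in Naïve, 8059 in ConA+Veh, 2436 in ConA+TCDD and 10182 in ConA+FICZ.

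The 10 genes differed in what stands before their start sites. The promoters of *Ldha* and *Pgk1* are shown because both genes were higher after ConA in most classes, and that of *Gapdh* because it was not. Each runs from 250 bases before to 50 bases after a RefSeq start on GRCm38.p6, and lies at chr7:46845554-46845853 on the plus strand for *Ldha*, at chrX:106186850-106187149 on the plus strand for *Pgk1* and at chr6:125165724-125166023 on the minus strand for *Gapdh*. Capitals mark ACGTG, a core that hypoxia-inducible factor is known to bind, and GCGTG, the core of the AhR response element, on either strand. These labels need not exclude each other.
Ldha: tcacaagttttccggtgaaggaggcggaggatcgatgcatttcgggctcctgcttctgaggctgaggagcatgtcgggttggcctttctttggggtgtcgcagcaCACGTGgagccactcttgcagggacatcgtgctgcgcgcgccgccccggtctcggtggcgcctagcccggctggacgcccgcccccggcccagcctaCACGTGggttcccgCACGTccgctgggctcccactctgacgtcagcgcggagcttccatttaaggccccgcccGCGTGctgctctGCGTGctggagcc
Pgk1: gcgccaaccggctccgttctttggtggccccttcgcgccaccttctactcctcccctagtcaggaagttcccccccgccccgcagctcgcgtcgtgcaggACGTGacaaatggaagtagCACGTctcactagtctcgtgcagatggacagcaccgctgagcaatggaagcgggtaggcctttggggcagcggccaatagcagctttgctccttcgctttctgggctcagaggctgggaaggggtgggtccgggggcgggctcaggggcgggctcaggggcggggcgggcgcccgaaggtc
Gapdh: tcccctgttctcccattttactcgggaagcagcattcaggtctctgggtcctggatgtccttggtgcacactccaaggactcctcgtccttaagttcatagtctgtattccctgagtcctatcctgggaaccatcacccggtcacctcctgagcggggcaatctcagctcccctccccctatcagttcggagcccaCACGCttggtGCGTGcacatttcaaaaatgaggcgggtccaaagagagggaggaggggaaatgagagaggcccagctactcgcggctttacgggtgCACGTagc

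The *Ldha* window shown held 5 matches to ACGTG, counted on each strand. They lie in 3 places, since at 2 of them the letters are CACGTG, the E-box bound by MYC, which reads the same on both strands and holds ACGTG on each. Another *Ldha* window, at chr7:46846832-46847131, held 0 matches to ACGTG, 2 to GCGTG and 0 to CACGTG. The *Pgk1* window held 2 matches to ACGTG and none to GCGTG, and the *Gapdh* window 1 and 2. Over all windows of the 10 genes, 8 had ACGTG in at least 1 window and 5 had GCGTG, and CACGTG was found for 1, *Ldha*. Of 27025 genes with such windows, 21.8% held ACGTG, 35.2% GCGTG and 8.09% CACGTG in at least 1. *Tpi1* and *Pgam1*, whose promoters are not shown, were also higher after ConA in most classes. The *Tpi1* window held no match to either core or to the E-box. The *Pgam1* window held 1 match to ACGTG and 2 to GCGTG, the same counts as that of *Gapdh*. A link between matches and the difference after ConA was not tested. Several of the 10 genes have more than 1 window, which raises the chance of a match. A match is a description of letters and not of a bound site.

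The level of the genes depended on the class in every library. In ConA+Veh the 10 genes summed to 9508 CPM (9375 to 9643) in myeloid cells, 8778 (8686 to 8870) in cycling CD8 T cells, 8129 (7991 to 8269) in CD4 T cells, 8000 (7776 to 8228) in other CD8 T cells, 6047 (5881 to 6215) in NK cells and 3703 (3647 to 3759) in B cells. These sums are 0.951% of all captured transcripts in myeloid cells and 0.37% in B cells. In Naïve the same sum was 6651 CPM (6420 to 6889) in myeloid, 6171 (5923 to 6426) in CD4 T, 4018 (3770 to 4279) in NK, 2765 (2630 to 2905) in other CD8 T and 2012 (1958 to 2067) in B cells. Ranking the classes with at least 20 cells for each gene and library, myeloid cells came first in 27 of 40 orders, cycling CD8 T cells in 6, CD4 T cells in 5 and NK and other CD8 T cells in 1 each, with neighbours in an order often not told apart by their intervals.

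**Figure D1:**
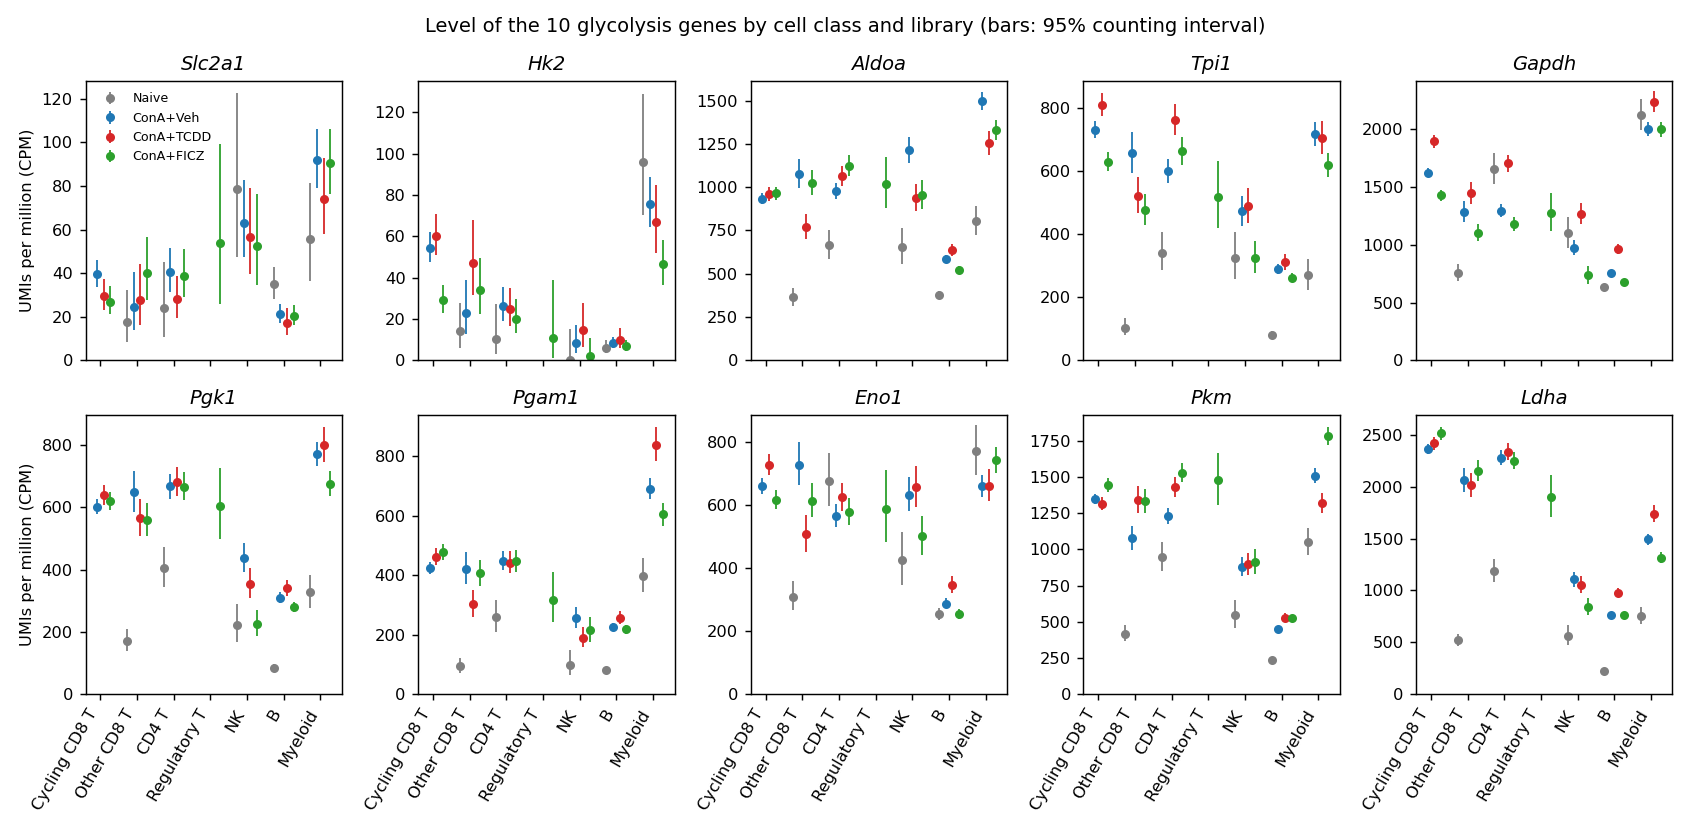
Level of each gene in CPM (y axis, linear, from 0) by cell class (x axis) and library (colour), for classes with at least 20 cells, with 95% counting intervals as bars. For *Ldha*, *Pgk1*, *Pgam1* and *Tpi1* the Naïve points (grey) lie below those of the ConA libraries in other CD8 T and B cells, and for *Gapdh* in myeloid cells they lie among them, between 1999 and 2238 CPM.

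The enzymes that dominate differed by class. In CD8 and CD4 T cells of the ConA groups *Ldha* was the most abundant of the 10, at 2366 CPM (cycling CD8 T), 2061 (other CD8 T) and 2280 (CD4 T) in ConA+Veh, and its intervals did not overlap those of *Gapdh*, which came next in that library. *Ldha* also came first in B cells of each ConA library, with an interval apart from that of *Gapdh* only in ConA+FICZ (761 against 682 CPM). In NK cells *Aldoa* came first in ConA+Veh and ConA+FICZ, with intervals that overlapped the next gene, and *Gapdh* in ConA+TCDD. In myeloid cells *Gapdh* came first in all 4 libraries, at 1999 to 2238 CPM. *Gapdh* was also the first gene in each of the 5 Naïve classes with at least 20 cells, at 633 CPM in B cells and 1658 in CD4 T cells. *Slc2a1* and *Hk2*, the transporter and the entry enzyme, were the 2 lowest genes at each of the 24 points given by a class and a library with at least 20 cells, with *Slc2a1* between 17.2 CPM (B cells of ConA+TCDD) and 91.9 CPM (myeloid cells of ConA+Veh). *Hk2* ran from no UMI in Naïve NK cells, where 3 counts would be 12.4 CPM, to 96.1 CPM in Naïve myeloid cells.

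Over the 24 class and library points with at least 20 cells, the genes varied by unequal amounts. *Ldha* ranged 11.1-fold, *Pgam1* 10.4-fold, *Tpi1* 10.0-fold and *Pgk1* 9.54-fold, while *Gapdh* ranged 3.54-fold and *Eno1* 3.04-fold. As a description, the Pearson correlation of log2(CPM + 10) with the mean of the other members over these 24 points was 0.94 for *Pkm*, 0.92 for *Pgk1*, 0.81 for *Ldha*, 0.68 for *Hk2* and 0.37 for *Slc2a1*. The points share libraries and classes, and the mean of the members also followed depth (r = 0.64 with the log2 of median UMIs per cell) and the percentage of cycling cells (r = 0.53). Their part in the pattern was not tested.

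ConA+Veh against Naïve asks how the genes differ between inflamed and healthy liver. Between these 2 libraries, *Ldha*, *Pgk1* and *Pgam1* were at least 1.5-fold higher in ConA+Veh in each of the 5 classes with at least 20 cells in both, and *Gapdh* in 1 of them. A gene in a class was called where its CPM differed at least 1.5-fold and the pair of libraries held at least 50 UMIs. Of 61 member and class pairs so counted, 37 were higher in ConA+Veh and 2 were lower, where 21.8% of all gene and class pairs were higher and 23.5% lower. In classes of at least 20 cells, the counts were 30 higher and 1 lower, and the shares of all genes in each of these classes are given below.

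In non-cycling CD8 T cells the differences were large, with all 8 counted members higher and a median log2 ratio of 1.75, against 0.16 for all genes. Of all genes in this class, 29.88% were higher and 21.15% lower. *Tpi1*, triosephosphate isomerase, was 104 CPM in Naïve and 657, 522 and 477 CPM in ConA+Veh, ConA+TCDD and ConA+FICZ, and its level in ConA+Veh was 6.34-fold that in Naïve (log2 ratio 2.66, 2.27 to 3.08). *Pgam1*, phosphoglycerate mutase, went from 93.2 CPM to 422, 303 and 406 CPM, 4.53-fold in ConA+Veh. *Ldha* went from 519 CPM to 2061, 2012 and 2153 CPM, 3.97-fold. All 3 ConA libraries lay above Naïve for each of these genes, with no overlap of counting intervals. *Gapdh* differed least among the 8, at 756 CPM in Naïve and 1285 in ConA+Veh (1.70-fold). *Slc2a1* and *Hk2* had under 50 UMIs in these 2 libraries and were not counted, at 17.6 against 24.7 CPM and 14.1 against 23.1 CPM.

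B cells had the lowest levels and a similar pattern. There the median log2 ratio of the 10 genes was 0.79, against -0.26 for all genes. Of the 10 genes 6 were higher and 1 lower, where 15.91% of all genes were higher and 34.02% lower. *Pgk1*, phosphoglycerate kinase, was 84.0 CPM in Naïve and 310, 340 and 279 CPM in the ConA libraries, 3.69-fold in ConA+Veh (log2 ratio 1.88, 1.68 to 2.10). *Tpi1* was 3.56-fold, *Ldha* 3.40-fold and *Pgam1* 2.79-fold higher in ConA+Veh. *Gapdh* was 633 against 757 CPM and *Eno1*, the enolase, 254 against 287 CPM, both under 1.5-fold. *Slc2a1* went the other way, at 35.0 CPM in Naïve and 21.3, 17.2 and 20.4 CPM in the ConA libraries (log2 ratio -0.72 in ConA+Veh, -1.14 to -0.29). Cells with a UMI of *Mreg*, *Cd86* or *Cd200*, genes of activated B cells, were 24.2% of B cells in Naïve and 32.0% in ConA+Veh. Over the alternatives, including the setting that left these cells out, the median log2 ratio in B cells was not below 0.72. The part of the difference in makeup in the result was not tested.

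**Figure D2:**
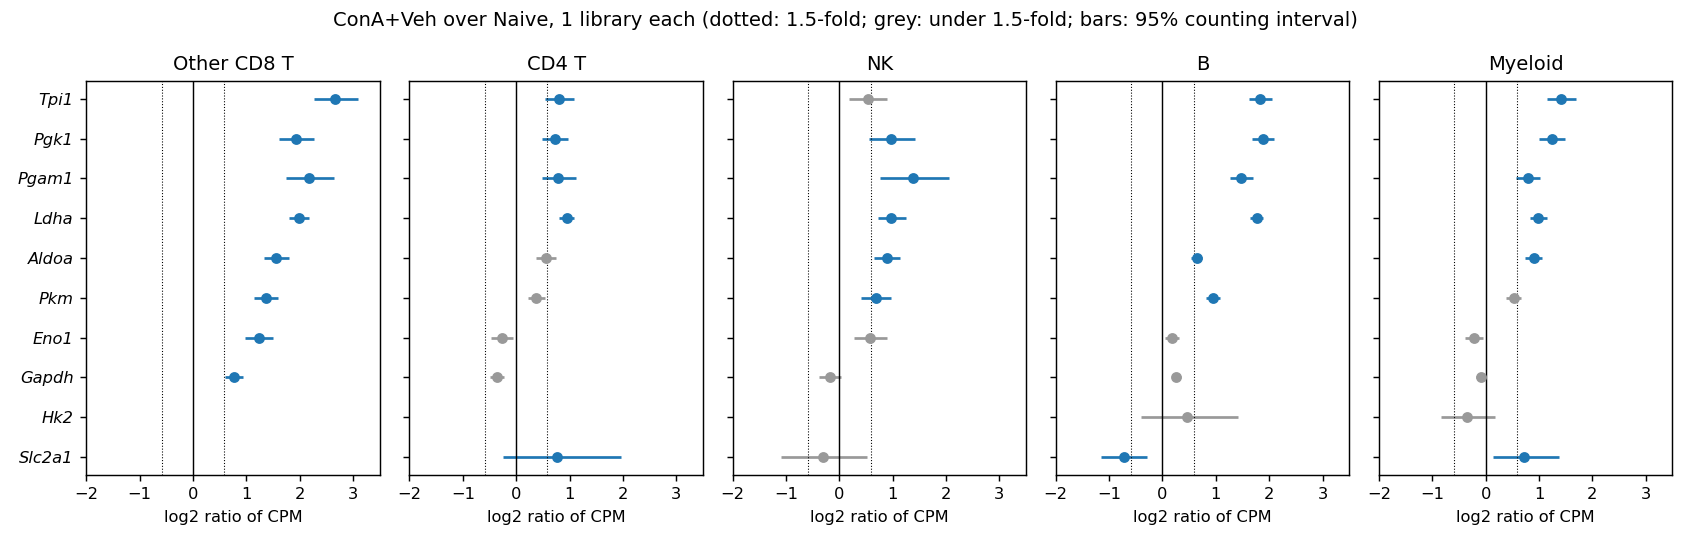
log2 ratio of CPM in ConA+Veh over Naïve (x axis) for each gene (y axis) in 5 classes with at least 20 cells in both libraries, for pairs with at least 50 UMIs; bars are 95% counting intervals and dotted lines mark 1.5-fold. *Tpi1*, *Pgk1*, *Pgam1* and *Ldha* lie to the right in every class, *Gapdh* near 0 in B, NK and myeloid cells, and *Slc2a1* to the left in B cells at -0.72.

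In NK cells 5 of 9 counted members were higher in ConA+Veh, with a median log2 ratio of 0.68 against 0.01 for all genes, of which 20% were higher and 20.7% lower. *Pgam1* was 2.60-fold higher, at 99.0 against 257 CPM, and *Ldha* 1.97-fold, at 561 against 1105 CPM. *Gapdh*, at 1102 against 976 CPM, and *Slc2a1*, at 78.4 against 63.2 CPM, lay below 1 with intervals that held no change. *Tpi1* and *Eno1* were 1.45-fold and 1.49-fold higher and so just missed the fold.

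In myeloid cells 6 of 10 were higher, with a median log2 ratio of 0.76 against 0.00 for all genes, of which 16.48% were higher and 18.89% lower. *Tpi1* was 2.66-fold and *Pgk1* 2.36-fold higher in ConA+Veh, *Ldha* 1.98-fold, *Aldoa* 1.86-fold and *Slc2a1* 1.66-fold. *Gapdh* (2127 against 2001 CPM), *Eno1* (771 against 660 CPM) and *Hk2* (96.1 against 75.8 CPM) were lower without reaching 1.5-fold. The share of cycling cells in this class was 4.21% in Naïve and 37.4% in ConA+Veh, and the makeup of its markers differed as given above. Without cycling cells the median log2 ratio of the 10 genes in myeloid cells was 1.02 and 7 of 10 were higher.

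CD4 T cells showed how few cells can carry a class. In Naïve, 8 cycling cells among 85 CD4 T cells held 39.6% of the UMIs of the class and 75.6% of the UMIs of the 10 genes. With them, 5 of 9 counted members were higher in ConA+Veh, at a median log2 ratio of 0.72, where 23.81% of all genes were higher and 18.69% lower. *Gapdh* (1658 against 1295 CPM) and *Eno1* (677 against 565 CPM) were lower without reaching 1.5-fold. Without cycling cells, all 8 counted members were higher and the median was 1.94, with *Tpi1* at a log2 ratio of 3.22, *Pgk1* at 2.71, *Ldha* at 2.08 and *Gapdh* at 0.78.

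The remaining classes had under 20 cells in Naïve. In cycling CD8 T cells, with 5 Naïve cells, *Aldoa*, *Tpi1* and *Hk2* passed 1.5-fold upwards, *Hk2* on 2 UMIs in Naïve, and *Gapdh* downwards, at 2504 against 1624 CPM. In regulatory T cells the 4 Naïve cells held 17 UMIs of the 10 genes, so the 4 pairs of this class among the 37 higher ones rest on almost no Naïve UMIs. *Tpi1* and *Pkm* had none there against 52 and 106 UMIs in ConA+Veh, and *Aldoa* and *Ldha* had 3 each, so that these pairs reached 50 UMIs through ConA+Veh alone.

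The difference was seen in shares of cells as well as in sums, though the cells of the libraries overlapped. When each cell was thinned at random to 1000 UMIs, the mean number of UMIs of the 10 genes in an other CD8 T cell was 1.85 in Naïve and 6.32, 6.96 and 6.27 in ConA+Veh, ConA+TCDD and ConA+FICZ, and the percentage of cells with none was 20.98% in Naïve and 0 to 6.85% in the ConA libraries. In B cells the means were 1.58, 2.96, 3.40 and 2.66, and in myeloid cells 4.30, 8.34, 8.86 and 7.99. Other CD8 T cells with at most 2 of these UMIs, the Naïve median, were 73.4% in Naïve and 37.0% in ConA+Veh. They were 13.9% in ConA+TCDD and 18.3% in ConA+FICZ. B cells with at most 2 were 80.3% in Naïve and 54.1% in ConA+Veh. A UMI of *Ldha* was found at that depth in 23.8% of 143 Naïve other CD8 T cells (17.1 to 31.6%, exact binomial) and in 61.6% of 73 ConA+Veh cells (49.5 to 72.8%), against 58.3% and 90.7% without thinning. In B cells the thinned shares were 14.2% (12.2 to 16.5%) and 38.8% (35.3 to 42.4%). No class lacks glycolysis, so free RNA was read from *Alb*, the albumin gene of hepatocytes, which had a UMI in 2.96% of thinned Naïve B cells (2.02 to 4.17%) and in 1.34% of those of ConA+Veh (0.65 to 2.46%). *Alb* reads free RNA of hepatocytes alone, so free RNA of the 10 genes from other cells was not measured.

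**Figure D3:**
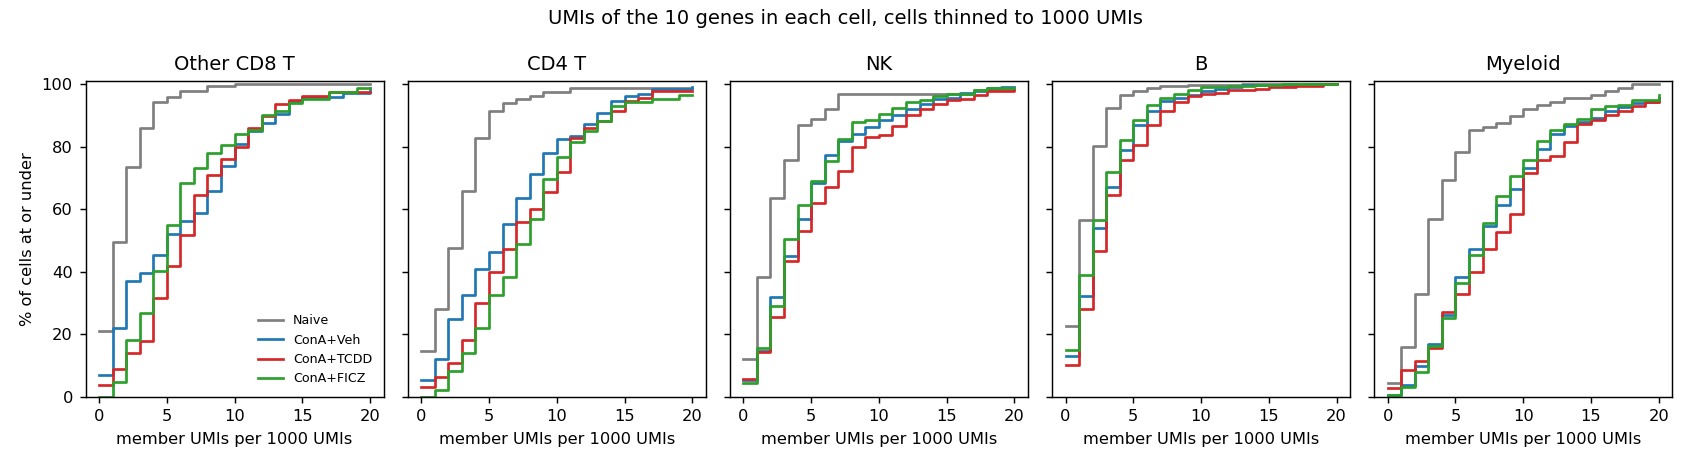
Percentage of cells (y axis) with at most a given number of UMIs of the 10 genes (x axis) after each cell was thinned to 1000 UMIs, by class and library. The Naïve curve lies above the ConA curves over most of the range in each class, as in other CD8 T cells, where the mean was 1.85 in Naïve and 6.32 in ConA+Veh.

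Cycling CD8 T cells held more of these transcripts than other CD8 T cells in Naïve, and the gap was small in the ConA libraries. In Naïve the 10 genes summed to 7937 CPM (7304 to 8610) in the 5 cycling CD8 T cells and to 2765 CPM (2630 to 2905) in the other 144. In ConA+Veh the sums were 8778 and 8000 CPM, in ConA+TCDD 9320 and 7544 CPM and in ConA+FICZ 8750 and 7742 CPM. Within these 3 libraries, 4 of 30 member and library pairs were at least 1.5-fold higher in cycling cells and none was lower, where 21.6% of all gene and library pairs were higher and 6.63% lower. Pairs this few do not set the members apart from all genes, and the medians given next lay near or above those of all genes.

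The 4 pairs were *Hk2* (54.4 against 23.1 CPM) and *Slc2a1* (39.5 against 24.7 CPM) in ConA+Veh, and *Tpi1* (810 against 522 CPM) and *Pgam1* (463 against 303 CPM) in ConA+TCDD. The *Hk2* value rested on 14 UMIs in other CD8 T cells and that of *Slc2a1* on 15, with an interval of the log2 ratio from -0.09 to 1.55. Medians over the 10 genes were 0.18, 0.33 and 0.13 in ConA+Veh, ConA+TCDD and ConA+FICZ, beside 0.19, 0.16 and 0.11 for all genes. Cycling CD8 T cells had a median of 12941.5 to 20640.5 UMIs in the ConA libraries and other CD8 T cells 7044 to 8798, so that UMIs per cell without correction were at least 1.5-fold higher in 29 of the 30 pairs. When cells were first thinned to 1000 UMIs and then gated, none was higher and 4 were lower in cycling cells, with medians of -0.61 in ConA+Veh and -0.77 in ConA+TCDD. This left 61 cycling and 63 other cells in ConA+Veh and 22 and 25 in ConA+TCDD. ConA+FICZ kept 8 cycling cells and was not counted. Cells called cycling at full depth could fall among the other cells at this depth, so the 2 classes are not those above. With the classes called at full depth and then thinned, cycling cells of ConA+Veh held a mean of 7.53 UMIs of the 10 genes and other cells 6.32. The means were 8.17 and 6.96 in ConA+TCDD and 8.20 and 6.27 in ConA+FICZ. The shares of all genes were not computed for the counts without correction or after thinning.

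**Figure D4:**
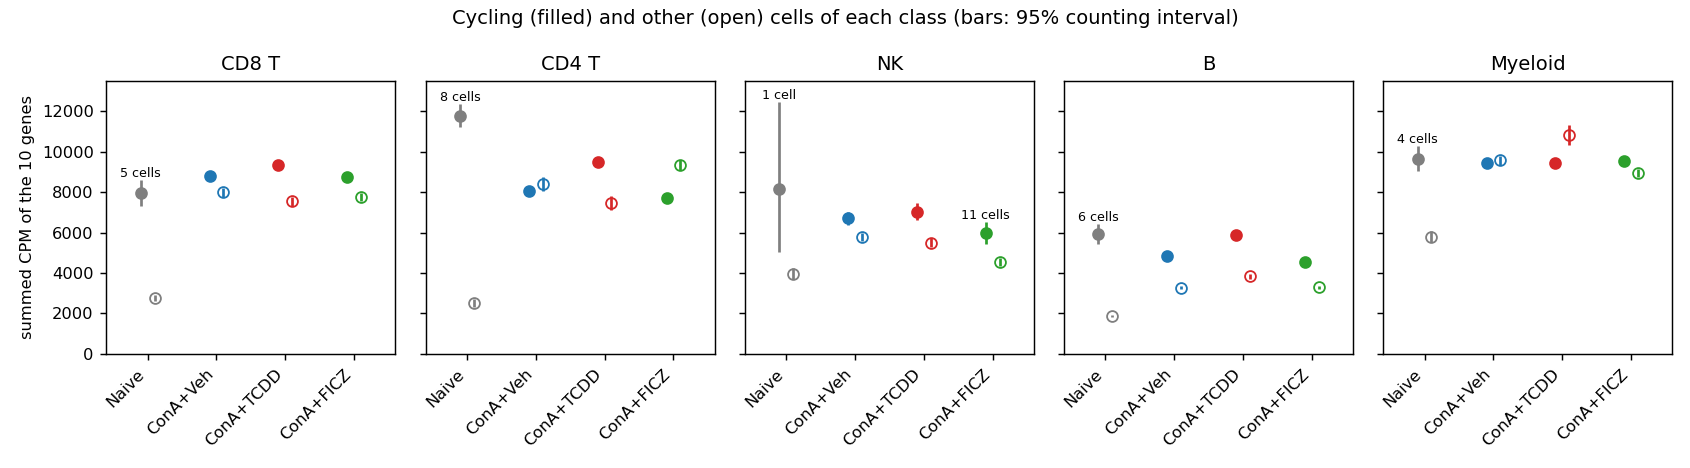
Summed CPM of the 10 genes (y axis, from 0) in cycling (filled) and other (open) cells of 5 classes, by library (x axis and colour), with 95% counting intervals; groups of under 20 cells carry their number. Open Naïve points lie lowest in each class, at 2765 CPM in CD8 T and 2494 CPM in CD4 T cells, while filled and open points of the ConA libraries lie close together in CD8 T cells.

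In the other classes the summed level in ConA+Veh was 8074 CPM in 88 cycling and 8406 CPM in 47 other CD4 T cells, and 9468 and 9572 CPM in myeloid cells. In B cells it was 4846 CPM in 120 cycling and 3272 CPM in 683 other cells, and in Naïve 5912 CPM in 6 cycling and 1861 CPM in 1073 other B cells. Non-cycling B cells were thus below cycling ones in both libraries, and above their Naïve counterparts.

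The comparisons of ConA+TCDD and of ConA+FICZ with ConA+Veh ask how AhR ligands given after ConA change the cells. They share the ConA+Veh library, so its own peculiarities enter both. In neither was any member with at least 50 UMIs at least 1.5-fold higher in any class, and most log2 ratios of such members lay within 0.5 of 0. Below that number, *Hk2* was 2.05-fold higher in other CD8 T cells of ConA+TCDD (log2 ratio 1.03, 0.07 to 2.07, on 29 and 14 UMIs), and *Slc2a1* 1.63-fold higher in those of ConA+FICZ (-0.22 to 1.69, on 32 and 15 UMIs).

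In ConA+TCDD over ConA+Veh, 4 of 64 pairs were at least 1.5-fold lower and none higher, where 7.29% of all gene and class pairs were lower and 4.69% higher. All 4 were in regulatory T cells, with 16 cells in ConA+TCDD and 10 in ConA+Veh. *Tpi1* was 319 against 764 CPM there, on 21 and 52 UMIs (log2 ratio -1.26, -2.07 to -0.50), and *Pgk1*, *Eno1* and *Ldha* had log2 ratios of -0.83, -0.76 and -0.64. Of these regulatory T cells 12.5% were cycling in ConA+TCDD and 40.0% in ConA+Veh. Without cycling cells, the *Ldha* ratio turned to 0.30 and none of the 4 members still counted passed the fold. A wider regulatory T gate took cells of the CD4 gate with at least 2 UMIs of *Foxp3*, *Il2ra*, *Ikzf2* and *Ctla4* together. It did not require *Foxp3* but did require a UMI of *Cd4*, which 42.3% of the *Foxp3*-gated cells of all libraries had. The gate held 81 cells in ConA+TCDD and 106 in ConA+Veh, and *Foxp3*-gated cells without *Cd4* were not in it. The CD4 T class then fell from 94 to 19 and from 135 to 34 cells, so this gate took largely other cells. With it no member was 1.5-fold lower and *Tpi1* stood at 0.27.

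*Gapdh* was higher in ConA+TCDD in all 7 classes by less than 1.5-fold, with log2 ratios from 0.10 in regulatory T cells to 0.40 in CD4 T cells. In B cells it was 960 against 757 CPM and in cycling CD8 T cells 1897 against 1624 CPM. *Slc2a1* had a negative log2 ratio in the 5 classes in which it was counted, from -0.54 in CD4 T cells to -0.15 in NK cells. Medians over the members were 0.11 in cycling CD8 T, -0.27 in other CD8 T, 0.08 in CD4 T, -0.07 in NK, 0.21 in B and -0.01 in myeloid cells. Without cycling cells they were -0.27 in CD4 T, 0.00 in NK, 0.17 in B and 0.20 in myeloid cells. Of myeloid cells 54.8% were cycling in ConA+TCDD and 37.4% in ConA+Veh.

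**Figure D5:**
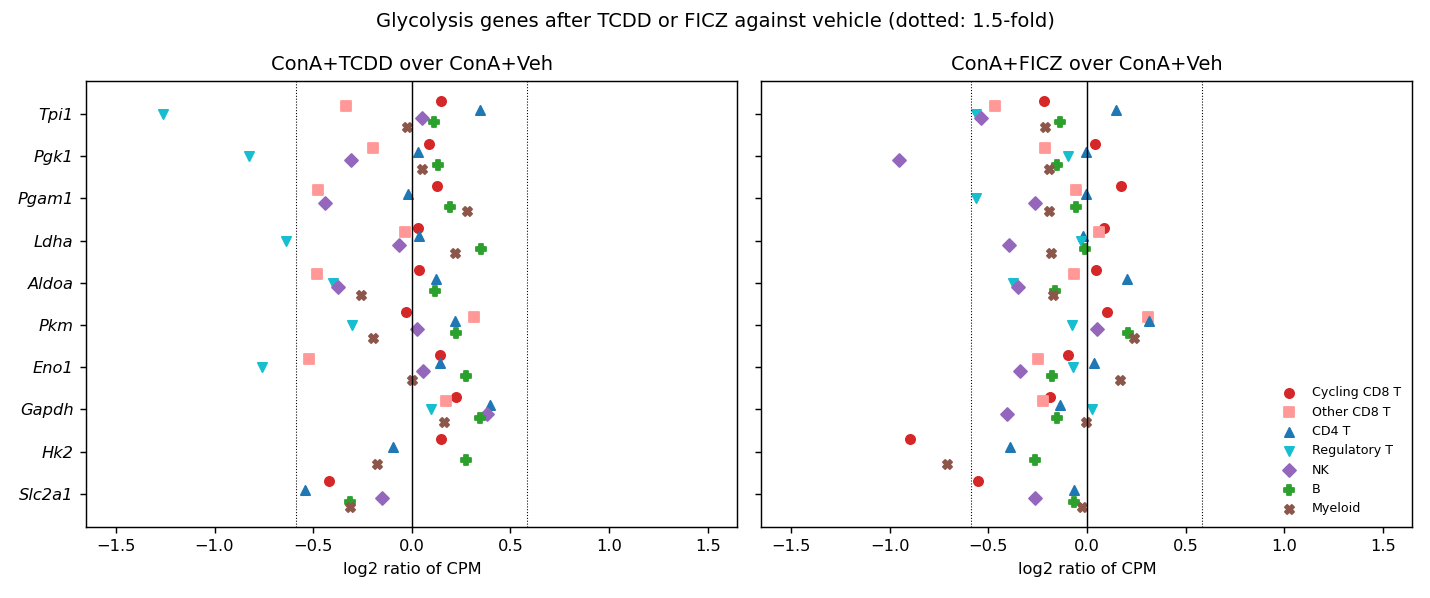
log2 ratio of CPM (x axis) of each gene (y axis) in ConA+TCDD (left) and ConA+FICZ (right) over the same ConA+Veh library, with 1 symbol per class and dotted lines at 1.5-fold, for pairs with at least 50 UMIs. No symbol lies beyond 1.5-fold on the right; those beyond it on the left are 4 genes in regulatory T cells after TCDD, and *Hk2* in cycling CD8 T and myeloid cells and *Pgk1* in NK cells after FICZ.

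In ConA+FICZ over ConA+Veh, 3 of 65 pairs were at least 1.5-fold lower and none higher, where 6.71% of all pairs were lower and 6.62% higher. *Hk2* was 29.2 against 54.4 CPM in cycling CD8 T cells, on 79 and 219 UMIs (log2 ratio -0.90, -1.29 to -0.52), and 46.4 against 75.8 CPM in myeloid cells (log2 ratio -0.71, -1.12 to -0.30). Cycling cells were 17.4% of myeloid cells in ConA+FICZ and 37.4% in ConA+Veh, and the part of this difference was not tested. *Pgk1* was 226 against 437 CPM in NK cells (log2 ratio -0.95, -1.27 to -0.65). NK cells had the lowest median of the classes, -0.35, and the 10 genes summed to 4764 CPM there in ConA+FICZ against 6047 CPM in ConA+Veh. *Pkm* had log2 ratios from 0.05 to 0.31 in 6 of 7 classes and -0.08 in regulatory T cells. Members with a ratio above 1 numbered 5 of 10 in cycling CD8 T and 4 of 10 in CD4 T cells, and 1 or 2 in each other class.

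Set against each other, the AhR ligands gave 4 of 65 pairs at least 1.5-fold higher in ConA+FICZ than in ConA+TCDD and 4 lower, where 9.73% and 6.87% of all pairs were so. The higher pairs were *Eno1*, *Ldha*, *Pgk1* and *Tpi1* in regulatory T cells, by log2 ratios of 0.61 to 0.73. The wider regulatory T gate held 84 and 81 cells against 22 and 16, largely cells of the CD4 T class, and left out *Foxp3*-gated cells without *Cd4*. With it all 4 were negative, from -0.22 (*Tpi1*) to -0.066 (*Pgk1*). Without cycling cells none of 7 counted members passed the fold. The lower ones were *Hk2* in cycling CD8 T cells, at 29.2 against 60.3 CPM (log2 ratio -1.04, -1.46 to -0.64), and *Gapdh*, *Pgk1* and *Tpi1* in NK cells, with log2 ratios of -0.79, -0.65 and -0.59. *Gapdh* was lower in ConA+FICZ in all 7 classes, from -0.07 in regulatory T to -0.79 in NK cells. With 1 library of each, an effect of a ligand and a difference between libraries cannot be told apart.

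Further lists held 35 other genes of the pathway and 10 regulators and hypoxia-induced genes outside it. Of these 45 genes, 30 had at least 300 UMIs in the 7 classes. Between ConA+Veh and Naïve, the upper steps (hexokinases, phosphoglucose isomerase and phosphofructokinase) gave 6 of 27 pairs higher and 3 lower, beside 21.8% and 23.5% of all gene and class pairs, the shares that the counts of the other lists in this comparison also stand against. *Gpi1*, phosphoglucose isomerase, had log2 ratios of 0.79 in other CD8 T, 0.74 in myeloid, 0.64 in NK, 0.47 in B and 0.08 in CD4 T cells. *Pfkp*, the platelet-type phosphofructokinase, stood at 1.06 in other CD8 T and 0.98 in B cells, whereas *Pfkl*, the liver type, stood at -1.03 in NK and -0.40 in B cells and *Hk1* at -0.49 in NK and -0.22 in B cells. *Pfkfb3*, which makes an activator of phosphofructokinase, was at -0.34 in B and 0.23 in myeloid cells, and *Hk3*, counted in myeloid cells alone, at 0.10.

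Transport of glucose, pyruvate and lactate gave 8 of 18 pairs higher and 1 lower (21.8% and 23.5% over all pairs). *Slc16a1* and *Slc16a3* encode lactate transporters, and *Slc16a1* had a log2 ratio of 2.01 in CD4 T and *Slc16a3* of 1.27 in myeloid cells. The whole Naïve library held 43 UMIs of *Slc16a1*, under the minimum for a counted pair. Pairs of *Slc16a1* could thus be counted only with the UMIs of ConA+Veh added, and its ratio rests on few Naïve UMIs. *Mpc1*, of the mitochondrial pyruvate carrier, stood at 1.22 in B cells and 0.68 in NK cells, and *Mpc2* at 0.61 in B cells. The glucose transporters *Slc2a3* and *Slc2a6* were counted in 1 class each, at -0.52 in cycling CD8 T and -0.69 in myeloid cells. Pyruvate dehydrogenase and its kinases gave 4 of 23 pairs higher and 5 lower, near the 21.8% and 23.5% over all pairs. Its subunits *Pdha1* and *Pdhb* were at 0.50 and -0.30 in B cells, and *Dlat* at 0.11. *Pdk1*, a kinase that switches pyruvate dehydrogenase off, was at -1.35 in other CD8 T and -0.98 in B cells, and *Pdk3* at 0.65 in B cells, so that these kinases differed in direction.

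Other isozymes of the same steps gave 5 of 12 pairs higher and 2 lower (21.8% and 23.5% over all pairs), and most had too few UMIs to count. *Eno1b*, whose sequence is nearly that of *Eno1*, held 1553 UMIs in the 7 classes, with log2 ratios of 1.88 in NK and 0.83 in B cells, and reads could be split between these genes, so that *Eno1* values are uncertain by that part. *Gapdh* and other members have processed pseudogenes, which leaves the same doubt. *Ldhb*, the other lactate dehydrogenase subunit, was at -0.78 in CD4 T cells, *Eno3*, the muscle enolase, at 1.25 in CD4 T and -0.07 in B cells, and *Bpgm*, bisphosphoglycerate mutase, at -0.02 in B cells. *Pklr*, the liver and red cell pyruvate kinase, held 0 UMIs in the 7 classes.

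Regulators and genes induced by hypoxia gave 24 of 38 pairs higher and 2 lower in ConA+Veh (21.8% and 23.5% over all pairs). *Hif1a*, the oxygen-regulated factor that is known to act on glycolysis genes, had log2 ratios of 1.74 in CD4 T, 1.29 in other CD8 T, 1.13 in B, 0.73 in NK and 0.41 in myeloid cells. Hypoxia-induced *Higd1a* stood at 1.60 in other CD8 T, 1.41 in B and 1.001 in NK cells, and *Bnip3* at 2.50 and *Ankrd37* at 2.21 in myeloid cells. *P4ha1*, a collagen prolyl hydroxylase, was at 1.68 in CD4 T and 1.07 in B cells. *Egln1*, an oxygen sensor that marks HIF-1α for degradation, was at -0.24 in B and -0.13 in myeloid cells, and *Vegfa*, a vascular growth factor, at 1.07 in myeloid cells. *Vegfa* had 42 UMIs in the whole Naïve library, under the minimum for a counted pair. Its pair in myeloid cells was thus counted only with the UMIs of ConA+Veh added, and the ratio rests on few Naïve UMIs. *Myc* went in both directions, at -1.76 in B and 1.25 in myeloid cells, and *Arnt*, the partner of both AhR and HIF-1α, was at -0.53 in B and -1.09 in myeloid cells.

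With TCDD against vehicle these lists showed few pairs past the fold. In ConA+TCDD over ConA+Veh, 8 of 127 pairs of the 5 lists were higher and 6 lower, near the 4.69% and 7.29% over all pairs. *Hif1a* was at -1.01 in NK, -0.70 in cycling CD8 T and -0.59 in other CD8 T cells in ConA+FICZ over ConA+Veh, and at 0.03, 0.37 and 0.27 in ConA+TCDD over ConA+Veh. In ConA+FICZ the lists gave 10 higher and 13 lower of 133, beside 6.62% and 6.71% over all pairs. The lists differed, as regulators and hypoxia-induced genes gave 4 higher and 8 lower of 43, and transport 3 and 4 of 22. Upper steps gave 2 higher and 0 lower of 28, isozymes 0 and 1 of 15, and pyruvate dehydrogenase 1 and 0 of 25. Single values were *Slc16a3* at -1.48 in cycling CD8 T cells and *Myc* at 1.12 in other CD8 T and 1.06 in B cells. In ConA+FICZ over ConA+TCDD the lists gave 15 higher and 11 lower of 126, beside 9.73% and 6.87% over all pairs. There regulators and hypoxia-induced genes gave 6 higher and 8 lower of 40, and upper steps 6 and 0 of 29. Transport gave 2 and 2 of 21, isozymes 1 and 1 of 11, and pyruvate dehydrogenase 0 and 0 of 25.

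Among 7866 genes outside these lists with at least 300 UMIs, the 10 whose log2(CPM + 10) followed the mean of the 10 glycolysis genes most closely over the 24 points were *Cycs*, *Bsg*, *Ybx3*, *Eif4a1*, *Rps27l*, *Psmd1*, *Gcsh*, *Mlec*, *Txn1* and *Rars*, at Pearson r of 0.94 down to 0.90. *Cycs* encodes cytochrome c of the respiratory chain, *Bsg* basigin, which escorts lactate transporters to the membrane, *Eif4a1* a translation initiation factor, *Psmd1* a proteasome subunit, *Txn1* thioredoxin and *Rars* an arginyl-tRNA synthetase. These genes differ in role, and the correlation is a description over points that share libraries and depth.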

How the data were processed

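Liver mononuclear cells of 4 groups, 1 library each, were profiled with the 10x Genomics 5′ assay. Per the labels the authors used Cell Ranger and the mm10 build, and per the file headers Cell Ranger 3.0.2, and the deposited values are raw UMI counts per gene and cell, with no normalization. Libraries held 5952445 to 19252211 UMIs.

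Cells were gated with at least 2 UMIs of T, NK or B markers, 3 of myeloid or 8 of neutrophil markers and few of other lineages (at most 1 UMI of T, NK or B markers, with NK markers allowed in T cells, and fewer myeloid or neutrophil UMIs than their gates ask), and cells rich in hepatocyte, erythroid, endothelial or plasmacytoid markers were left out. CD8 T cells had 2 UMIs of *Cd8a* and *Cd8b1* and none of *Cd4*, CD4 T cells had 1 of *Cd4*, regulatory T cells 1 of *Foxp3* and cycling cells 2 of the cycling list. The thresholds were set on the marker distributions after the files had been seen. No doublet caller was run, and cells of mixed markers fell in no class. There are 2 rows with the symbol *Aldoa*, of which the one with 47541 UMIs was used and the one with 9 was not. UMIs were summed per class and library as CPM, with exact Poisson intervals for levels, exact binomial intervals for ratios and shares (95%), and a floor of 3 counts for a count of 0. With 1 library per group no test was made. Shares were read after thinning to 1000 UMIs, leaving shallower cells out. Likeness used log2(CPM + 10). All 10 members, pathway and regulator genes with at least 300 UMIs and the 10 most alike genes were named. The members, lists and gates were chosen with earlier results of these data known. Alternatives changed the denominator, depth, gates, minimum (50 UMIs) and fold, and their effect is given at the end, except that 1 setting on the makeup of T cells, which left few T cells and moved some counts, and 1 gene of the isozyme list are not reported here. Promoters came from RefSeq on GRCm38.p6, and all 10 members matched by symbol. The scripts ran under Python 3.11.15 with pandas 2.3.3, scipy 1.17.1, numpy 2.4.6 and matplotlib 3.10.9.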

Additional observations from a re-analysis of the deposited data

Results flagged for a closer look

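*Slc2a1*, the GLUT1 transporter gene, differed in direction between classes in ConA+Veh over Naïve. Its log2 ratio was 0.77 in CD4 T cells (-0.24 to 1.96, on 66 and 9 UMIs), 0.73 in myeloid cells (0.13 to 1.38, on 188 and 26 UMIs) and -0.72 in B cells (-1.14 to -0.29, on 97 and 93 UMIs). The difference between the classes was not tested, since each group is 1 library. In B cells the value without correction for depth was 0.49, where B cells of ConA+Veh held a median of 4187 UMIs against 2124 in Naïve.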

How the results depend on the processing

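The limits are those of 1 library per group. No replicate could be left out and no paired analysis was possible because each group is 1 library and the labels carry no replicate numbers. The counts of member and class pairs past 1.5-fold, which were 37 higher and 2 lower (ConA+Veh over Naïve), 0 and 4 (ConA+TCDD over ConA+Veh), 0 and 3 (the same for ConA+FICZ), 4 and 4 (ConA+FICZ over ConA+TCDD) and, for cycling over other CD8 T cells, 4 and 0, are given below where an alternative moved them by more than 1.5 times, and the cause was not tested unless the setting itself gives it. The alternatives that left out all cycling cells, classes under 20 cells, and cells with 1 to 4 cycling UMIs were chosen after seeing the data. The share of all genes past the fold was not computed anew under the alternatives, here or above. Their counts therefore show how a setting moves the members and do not set the members apart from all genes.

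Thinning cells to 1000 UMIs leaves fewer UMIs to count, and the cells were gated again at that depth. Of the 56 single log2 ratios past 1.5-fold before thinning, 24 could still be counted. In this setting 22 pairs were higher in ConA+Veh over Naïve and 1 lower. ConA+TCDD over ConA+Veh gave 3 higher and 1 lower, and ConA+FICZ over ConA+Veh 1 higher. ConA+FICZ over ConA+TCDD gave 0 higher and 9 lower, and cycling CD8 T cells gave 0 higher and 4 lower. At 2-fold the counts in the order above were 18 and 0, 1 lower, 0 lower, 0 and 1, and 1 higher. With no minimum of UMIs, each AhR ligand gave 2 higher against ConA+Veh. With each cell's share averaged, 1 was lower in ConA+Veh over Naïve, each AhR ligand gave 1 higher against ConA+Veh, with 6 lower in ConA+FICZ, and ConA+FICZ over ConA+TCDD gave 2 and 8. With mean UMIs per cell left uncorrected for depth, there were 1 lower (ConA+Veh over Naïve), 6 and 7 (ConA+TCDD), 4 and 5 (ConA+FICZ), 11 and 13 (ConA+FICZ over ConA+TCDD) and 29 higher (cycling). Without ribosomal protein and mitochondrial genes, cycling over other CD8 T cells gave 1 and 1.

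Without cells over 10% mitochondrial UMIs, 1 was lower in ConA+Veh over Naïve, 6 were lower in ConA+FICZ over ConA+Veh and 1 was lower in cycling cells. Without lymphocytes lacking *Cd52*, 5 were lower in ConA+FICZ over ConA+Veh. Without B cells with *Mreg*, *Cd86* or *Cd200*, 1 was lower in ConA+Veh over Naïve. With the wider regulatory T gate, 4 were lower in ConA+Veh over Naïve, 0 lower in ConA+TCDD over ConA+Veh, 3 higher in ConA+FICZ over ConA+Veh and 0 higher in ConA+FICZ over ConA+TCDD. With cycling called by *Mki67*, 1 was higher in ConA+FICZ over ConA+Veh, and cycling over other cells gave 1 and 1. Without cycling cells in any class, 1 was lower in ConA+Veh over Naïve, 1 higher and 0 lower in ConA+TCDD over ConA+Veh, and 1 higher in both comparisons of ConA+FICZ. In classes of 20 or more cells, 1 was lower in ConA+Veh over Naïve, 0 lower in ConA+TCDD over ConA+Veh and 0 higher in ConA+FICZ over ConA+TCDD, since classes with few cells then drop out.

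Of the single log2 ratios past 1.5-fold, 56 were recomputed under the alternatives, and 13 of the values so obtained changed sign. In ConA+Veh over Naïve these were *Hk2* in cycling CD8 T cells with *Mki67* (-0.75) and with the 5 UMI gate (-0.19), *Aldoa* in regulatory T cells with the wider gate (-0.017) and *Slc2a1* in B cells left uncorrected for depth (0.49). In regulatory T cells of ConA+TCDD over ConA+Veh the wider gate gave *Tpi1* 0.27, *Eno1* 0.10 and *Ldha* 0.011, and *Ldha* was 0.031 with each cell's share averaged and 0.30 without cycling cells. In ConA+FICZ over ConA+TCDD the wider gate gave *Tpi1* -0.22, *Pgk1* -0.066, *Eno1* -0.078 and *Ldha* -0.0715. The regulatory T values thus depended on which cells were called. The wider gate took largely cells of the CD4 T class and left out *Foxp3*-gated cells without *Cd4*, so it was not the same cells with more added. The other changes of sign under the settings given here were those named. The median log2 ratio in ConA+Veh over Naïve stayed between 0.72 and 1.996 in B cells, 0.66 and 1.45 in NK cells and 0.61 and 1.68 in myeloid cells over the alternatives given here, and between 0.19 (cells thinned) and 2.16 in CD4 T cells.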

Other observations

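Neutrophils, gated by *S100a8*, *S100a9*, *Retnlg*, *Csf3r* and *Cxcr2* and in none of the comparisons above, held the 10 genes at 10738 CPM in 23 Naïve cells, 9178 CPM in 125 ConA+Veh cells, 11017 CPM in 46 ConA+TCDD cells and 8051 CPM in 277 ConA+FICZ cells. *Gapdh* was 4010 CPM (3511 to 4559) in the Naïve neutrophils and 1941, 2481 and 1855 CPM in those of ConA+Veh, ConA+TCDD and ConA+FICZ. *Ldha* ran the other way, at 551 CPM (377 to 777) in Naïve and 1180, 1499 and 808 CPM in the ConA libraries, where the interval of ConA+FICZ (750.1 to 870 CPM) overlapped that of Naïve. *Slc2a1* was 206.5 CPM (107 to 361) in Naïve neutrophils and 117 to 163 CPM in the others. Cycling cells were 0% of neutrophils in Naïve, 18.4% in ConA+Veh, 10.9% in ConA+TCDD and 3.61% in ConA+FICZ. In the same order, myeloid markers summed to 2650, 6012, 3719 and 3870 CPM in these cells. The part of this makeup in the values was not tested.

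T cells that met none of the CD8, CD4 and regulatory gates numbered 244 to 370 per library, and held the 10 genes at 4412 CPM in Naïve and at 8276, 8752 and 7993 CPM in ConA+Veh, ConA+TCDD and ConA+FICZ. Cells put in no class numbered 229 to 554 per library and held 3619 CPM in Naïve and 5169 to 6457 CPM in the ConA libraries.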
